A study of Mus musculus with 6 samples.

Results

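The genes described here encode the ATP signaling machinery of the developing cochlea: the ATP release channel Panx1, the ATP receptors P2ry1, P2ry2, P2rx2, P2rx3, P2rx4 and P2rx7, the ATP-degrading enzymes Entpd1 and Entpd2, and the calcium-activated chloride channel Ano1. They were chosen by symbol, 10 of the 24421 symbols in the count table, and all 10 were found and had enough counts to be tested. RNA was measured by RNA-seq in cochlear explants of wild-type (WT) mice isolated at postnatal day 2. Neomycin was given at 1 mM from 12 h of culture, for 6 h, and RNA was taken 5 days later. The protocol in the sample labels, the same for all 6 samples, lists EdU, a thymidine analog, at 10 μM in the medium. Neomycin is an aminoglycoside antibiotic that kills hair cells (HCs). The 3 control and 3 neomycin samples were each a pool of 6 to 8 cochleae. That protocol also gives neomycin for all 6 samples, so the control group is taken as explants without neomycin from its title and treatment label. By the study's methods the modiolus, which holds the spiral ganglion neurons, the forming stria vascularis and the tectorial membrane were dissected away before culture. Each sample was RNA of the remaining explant, and listed markers of HCs, supporting cells (SCs), neurons, glia, vessels, macrophages and connective tissue were all detected. In such bulk samples, fewer cells of a type and less RNA per cell cannot be told apart.

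Before hearing begins, the inner SCs of Kölliker's organ, a transient epithelium in the greater epithelial ridge (GER), release ATP spontaneously. ATP acts on their own P2Y receptors, which couple through Gq and phospholipase C to the release of calcium from internal stores. Calcium then opens the chloride channel ANO1 (TMEM16A), the cells lose chloride and potassium and shrink, and the extracellular potassium excites nearby HCs and spiral ganglion neurons. P2X receptors are cation channels opened by ATP directly, and ectonucleotidases end the signal by removing phosphates from ATP.

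Total counts per sample ran from 50471116 to 66068108. Levels are given as CPM, read counts divided by the TMM-adjusted library size, and a gene was called changed where edgeR's quasi-likelihood test gave an adjusted p below 0.05 (Benjamini-Hochberg over 15988 genes) and the groups differed by over 1.5-fold. SE is the standard error of a log2 fold change. Nothing in the labels says that the pools came from separate litters, so the p-values measure the spread between these pools. Of 16 HC marker genes, 14 were called lower, against 6.60% of all genes tested. The summed level of the 16 was 845.3 to 972.9 CPM in control and 261.5 to 326.1 CPM after neomycin. All 9 listed markers of Kölliker's organ and the GER were detected in every sample, at control means from 23.3 CPM for Crabp1 to 5530.9 CPM for Epyc. They summed to between 10953.7 and 12768.8 CPM in control and between 13944.0 and 17460.6 CPM after neomycin, and Epyc and Tectb carried most of that sum. Tectb and Crabp1 were called higher, as were 2.24% of all genes tested. Otoa, Fabp7 and Gjb6 were higher by less than the fold threshold, and Calb1 was lower by less than it (284.8 ± 30.6 and 193.3 ± 15.2 CPM, SD, n = 3, log2 fold change -0.56, edgeR adjusted p = 0.00114).

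Of the 10 purinergic and Ano1 genes, 0 were called changed after neomycin, against 8.84% of all genes tested (edgeR, adjusted p under 0.05 and fold over 1.5). At an unadjusted p under 0.05 there were 2, P2ry2 and P2rx3. Over all genes tested that share was not computed and is at least 29.0%, the share past the adjusted p threshold. DESeq2 called 1 of the 10, P2rx3, and 1475 of all 19820 genes in its fit. The limma-voom fit called 0 of the 10 and 1423 of all 15988 genes. With no fold change threshold, P2ry2 alone passed, 1 of 10 against 29.0% of all genes tested. The 95% interval of the fold change lay inside 1.5-fold in either direction for 8 of the 10 genes, against 59.8% of all genes tested, and P2rx3 and Entpd1 were the exceptions. The median log2 fold change of the 10 genes was -0.03. The values of control and neomycin samples failed to overlap for 1 of the 10, P2ry2, against 43.5% of all genes tested.

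**Figure D1:**
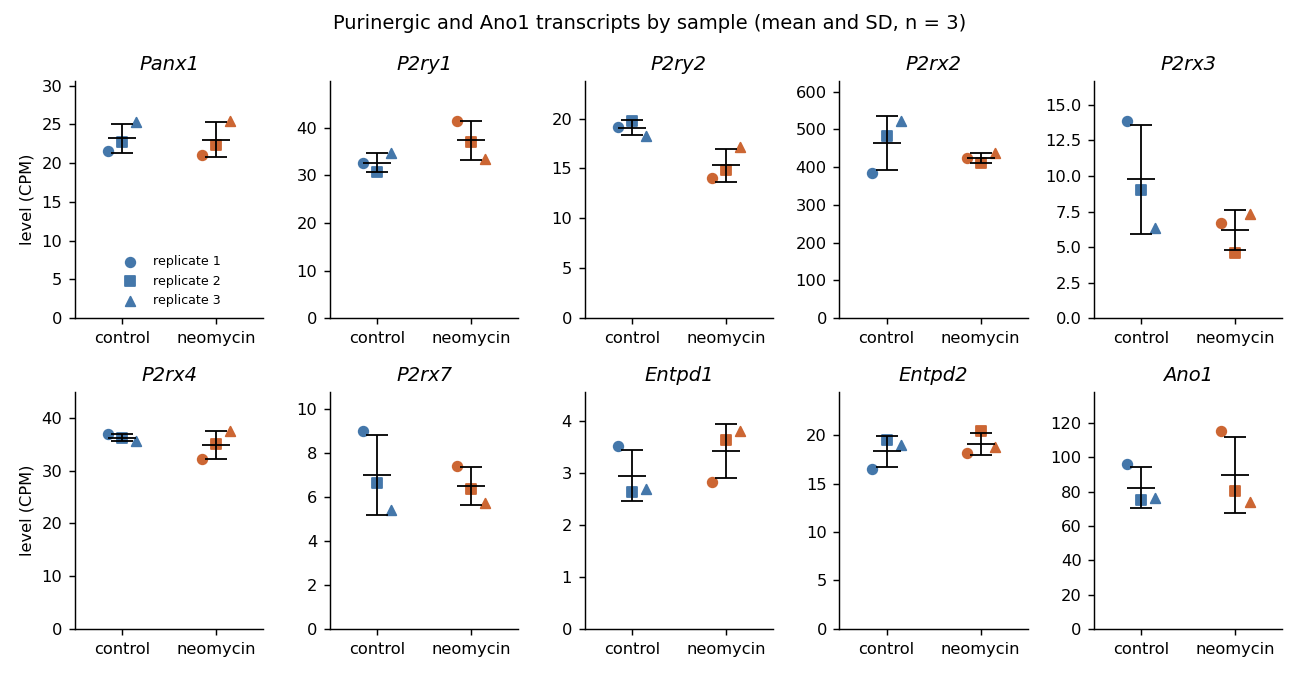
Level of each of the 10 transcripts in CPM (linear axis from 0, a separate scale for each gene) in control (blue) and neomycin (orange) samples, with the replicate number as the marker shape and the mean ± SD in black (n = 3). The groups overlap for every gene except P2ry2, whose neomycin samples lie between 14 and 17.2 CPM and whose control samples lie between 18.3 and 19.8 CPM.

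Ano1, on chromosome 7 of mm10 from 144588549 to 144751974 on the minus strand, encodes the calcium-activated chloride channel at the end of the cascade. It was at 96.0, 74.8 and 76.2 CPM in control replicates 1, 2 and 3 and at 115.1, 80.1 and 73.7 CPM in neomycin replicates 1, 2 and 3. Replicate 1 was the highest of both groups and the groups overlapped, with the lowest of all 6 values in a neomycin sample. The means were 82.3 ± 11.9 and 89.6 ± 22.3 CPM (SD, n = 3), and the log2 fold change was 0.12 with a 95% interval from -0.19 to 0.44 (edgeR adjusted p = 0.565). Without neomycin replicate 1 the log2 fold change was -0.10 (edgeR adjusted p = 0.531). As a ratio of neomycin to control, the interval over all samples ran from 0.874 to 1.35.

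The pattern of Ano1 over the 6 samples was compared with that of 14035 other tested genes with a mean of at least 1 CPM, by the root mean square distance between log2 CPM values set relative to each gene's control mean. The 3 nearest were Jpx, Amigo3 and Tecta, at distances of 0.055, 0.07 and 0.073 on the log2 scale. Tecta, which encodes the tectorial membrane protein alpha-tectorin, belongs to the list of Kölliker's organ and GER markers. No other gene of that list was among the 3 nearest. The values of Tecta were 1083.8, 834.9 and 905.8 CPM in control replicates 1, 2 and 3. In neomycin replicates 1, 2 and 3 they were 1243.9, 975.8 and 911.3 CPM. Like Ano1, Tecta was highest in replicate 1 of each group, and its log2 fold change was 0.15 (95% interval from -0.13 to 0.43, edgeR adjusted p = 0.407). Of the other genes on that list, Otoa and Fabp7 were also highest in replicate 1 of each group. Among the controls, Tectb, Epyc, Calb1, Crabp1 and Gjb6 were highest in replicate 3 and Gjb2 in replicate 2. The share of all tested genes highest in replicate 1 of each group was not computed. Jpx is a long non-coding RNA gene and lay between 1.78 and 2.60 CPM in the 6 samples. The likeness is a description over 6 samples that share their libraries and normalization.

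**Figure D2:**
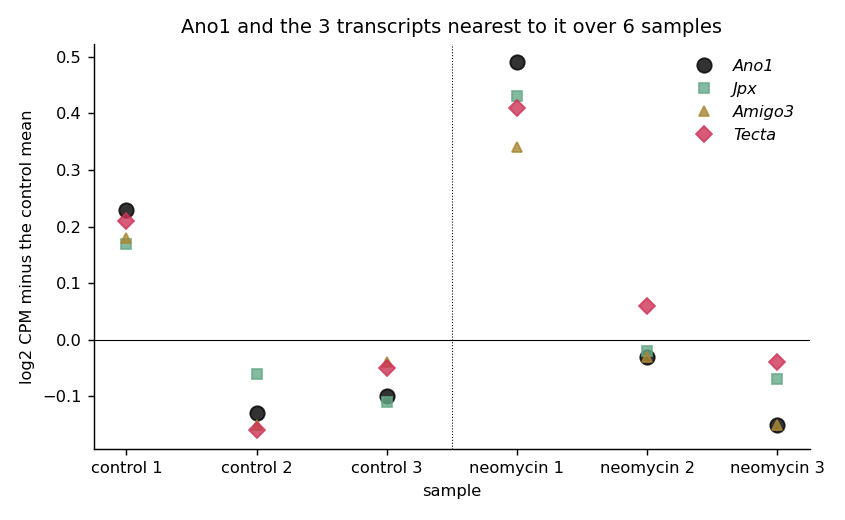
Log2 CPM minus the control mean of each gene for Ano1, Jpx, Amigo3 and Tecta in the 6 samples. All 4 transcripts are highest in neomycin replicate 1, where Ano1 is 0.49 and Tecta 0.41 above the control mean, and next highest in control replicate 1.

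P2ry1 and P2ry2 encode receptors that couple to Gq, P2Y1 preferring ADP and P2Y2 responding to ATP and UTP. P2ry1, on chromosome 3 from 61002795 to 61008982 on the plus strand, was at 32.6, 30.6 and 34.6 CPM in control and at 41.5, 37.1 and 33.4 CPM after neomycin. Neomycin replicate 3 lay within the control range and the others above it. The log2 fold change was 0.20, the fold change 1.15 with a 95% interval from 0.997 to 1.32 (edgeR adjusted p = 0.13). An antisense gene overlaps P2ry1 on the opposite strand, and reads counted without strand cannot be told apart there.

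P2ry2, on chromosome 7 from 100996568 to 101012866 on the minus strand, was at 19.2, 19.8 and 18.3 CPM in control and at 14, 14.8 and 17.2 CPM after neomycin. Every neomycin sample was below every control sample. The means were 19.1 ± 0.751 and 15.3 ± 1.65 CPM (SD, n = 3), a difference on the log2 scale of -0.32 (SE 0.10, 95% interval from -0.54 to -0.10, edgeR adjusted p = 0.0347). The difference passed the adjusted p threshold and not the fold threshold, since the neomycin mean was 0.803 of control by the fit. With a sample left out, edgeR gave adjusted p-values between 0.0225 and 0.126, above 0.05 without control replicate 1 or 2 or without neomycin replicate 1 or 2.

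Set against each other within a library and per kb of exon, P2ry2 stood at 0.641 of P2ry1 in control and 0.449 after neomycin (geometric means, n = 3 each). The log2 ratio of P2ry2 to P2ry1 was -0.64, -0.50 and -0.79 in the control pools (replicates 1 to 3), whereas the neomycin pools had -1.43, -1.20 and -0.83. The neomycin values were all below the control values, narrowly for neomycin replicate 3, and the difference of -0.51 had p = 0.1 (exact two-sided permutation test), the smallest p that 3 samples against 3 allow. The other 6 P2Y receptor genes listed were scarce. P2ry10 had 0 counts in every sample, P2ry4 had 5 counts or fewer, and P2ry6, P2ry12, P2ry13 and P2ry14, of which P2ry6 and P2ry12 are known from macrophages and microglia, had mean levels below 3 CPM in both groups and no call.

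P2rx2, on chromosome 5 from 110339812 to 110343212 on the minus strand, encodes the ATP-gated channel subunit known from the cochlear epithelium, where it occurs in HCs and SCs. It was at 384.7, 481.7 and 523.1 CPM in control and at 424.3, 410.8 and 436.6 CPM after neomycin. The neomycin values all lay inside the control range, and control replicate 1 was the lowest of the 6. The means were 463.1 ± 71.0 and 423.9 ± 12.9 CPM (SD, n = 3), and the log2 fold change was -0.13 with a 95% interval from -0.35 to 0.10 (edgeR adjusted p = 0.384). In the same libraries the 16 HC markers had a median log2 fold change of -2.0. They ran from -3.99 for Slc26a5 to -0.36 for Myo6 and -0.05 for Atoh1. The part of HC markers in the P2rx2 value was not tested. With single samples left out the log2 fold change of P2rx2 ran from -0.24 without control replicate 1 (edgeR adjusted p = 0.0726) to -0.02 without control replicate 3 (edgeR adjusted p = 0.898).

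P2rx2 carried most of the P2X level. Per kb of exon it made up 92.3% to 95.7% of the summed level of the 7 P2X genes in the 6 samples, with means of 94.3% in control and 94.8% after neomycin. P2rx4 came next with a mean of 2.75% in control and 2.86% after neomycin (SD 0.45 and 0.20, n = 3). Its share differed by 0.11 percentage points between the groups (exact two-sided permutation test, p = 0.8). P2rx3, P2rx7, P2rx6 and P2rx5 shared the remainder, and P2rx1 had between 0 and 11 counts and was not tested.

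P2rx3, on chromosome 2 from 84998583 to 85037462 on the minus strand, encodes a channel subunit best known from sensory neurons. It was at 13.9, 9.01 and 6.37 CPM in control and at 6.68, 4.59 and 7.30 CPM after neomycin. Control replicate 1 stood apart at the top, and the lowest control value lay below 2 of the 3 neomycin values. The means were 9.75 ± 3.81 and 6.19 ± 1.42 CPM (SD, n = 3), and the log2 fold change was -0.66 with a 95% interval from -1.20 to -0.13 (edgeR adjusted p = 0.0617). The result turned on the setting. It was called by DESeq2 (adjusted p = 0.0216), with no filter on low counts (edgeR, 0.0256), with the replicate number as a block (edgeR, 0.0443), with the gene length trend removed (edgeR, 0.0413) and without control replicate 3 (edgeR, 0.01). Without control replicate 1 it shrank to -0.31 (edgeR adjusted p = 0.315).

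Of 10 listed spiral ganglion neuron genes, 4 were called lower, against 6.60% of all genes tested. The 4 were the neurofilament genes Nefl, Nefm and Nefh and the synaptic gene Snap25, and Isl1 was higher by less than the fold threshold. The summed level of the list was 321.0 to 401.1 CPM in control and 301.1 to 337.8 CPM after neomycin, and none of its genes was at 0. Among the control samples, replicate 1, the highest for P2rx3, was the highest for 8 of the 10 neuron genes, and Stmn2 and Isl1 were the exceptions. The share of all tested genes that were highest in that sample was not computed. Ano1, P2rx7 and Tecta were also highest there among the controls, while P2rx2 was lowest there. The modiolus had been removed from these explants, and the part of neurons in the P2rx3 result was not tested. Ssrp1 overlaps exons of P2rx3 on the opposite strand and was at 181.4 ± 3.42 CPM in control and 185.5 ± 0.929 CPM after neomycin (SD, n = 3). Without strand, reads of both genes cannot be told apart there.

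P2rx4 and P2rx7, neighbors on chromosome 5 from 122707544 to 122729738 and from 122643911 to 122691432, both on the plus strand, encode channel subunits found in macrophages among other cells. P2rx4 was at 37.0, 36.2 and 35.7 CPM in control and at 32.2, 35.1 and 37.5 CPM after neomycin. P2rx7 was at 9.0, 6.63 and 5.41 CPM in control and at 7.42, 6.36 and 5.72 CPM after neomycin. Both genes overlapped between the groups, and the control samples spread further than the neomycin samples for P2rx7. The log2 fold changes were -0.06 for P2rx4 (95% interval from -0.23 to 0.12, edgeR adjusted p = 0.636) and -0.11 for P2rx7 (95% interval from -0.51 to 0.29, edgeR adjusted p = 0.677). Of 10 macrophage markers in the same libraries, 5 were called higher, against 2.24% of all genes tested. Among the 5 were the complement genes C1qa and C1qc and the lysosomal gene Cd68. Csf1r, Adgre1, Cx3cr1 and Aif1 did not pass the adjusted p threshold, with log2 fold changes of -0.05, 0.13, 0.31 and 0.76. The summed level of the list was 88.9 to 118.9 CPM in control and 127.1 to 158.6 CPM after neomycin, with none of its genes at 0. The part of macrophages in the P2rx4 and P2rx7 values was not tested.

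**Figure D3:**
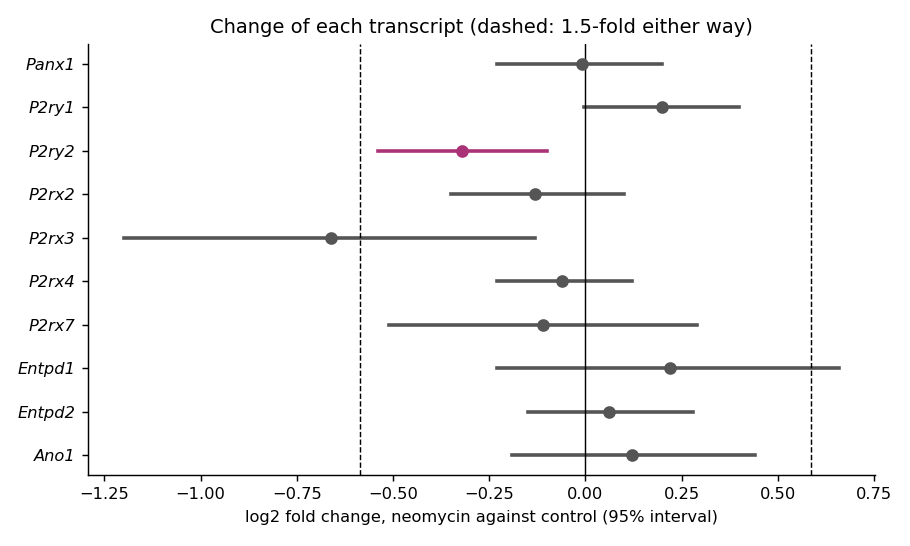
Log2 fold change of each transcript, neomycin against control, with its 95% interval from the edgeR fit, ordered by role from the release channel Panx1 to the chloride channel Ano1. The dashed lines mark 1.5-fold in either direction, which the intervals of P2rx3 and Entpd1 cross and those of the other 8 genes do not, and P2ry2 (purple) has an adjusted p of 0.0347.

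Panx1, on chromosome 9 from 15002128 to 15045478 on the minus strand, encodes the large-pore channel pannexin 1, through which ATP can leave cells. It was at 21.6, 22.7 and 25.3 CPM in control and at 21.1, 22.4 and 25.5 CPM after neomycin. The groups covered nearly the same range, with a log2 fold change of -0.01 and a 95% interval from -0.23 to 0.20 (edgeR adjusted p = 0.938). Among 11 genes listed for ATP release, 10 were tested and 1 was called, the connexin gene Gja1. That was 10.0% of the list's tested genes, against 8.84% of all genes tested. Gja1 (connexin 43) was at 29.0, 38.1 and 37.1 CPM in control and at 20.0, 22.4 and 25.9 CPM after neomycin. The groups did not overlap, and the log2 fold change was -0.61 (SE 0.12, edgeR adjusted p = 0.00325). Its fold change was under 1.5 with the gene length trend removed (-0.43, edgeR adjusted p = 0.0354), and without control replicate 2 (-0.53), control replicate 3 (-0.55) or neomycin replicate 1 (-0.53).

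Gjb6 (connexin 30), a gap junction and hemichannel subunit of SCs, was at 102.0, 105.7 and 110.3 CPM in control and at 142.6, 142.3 and 140.1 CPM after neomycin. Every neomycin sample was above every control sample, and the log2 fold change of 0.42 (SE 0.07, edgeR adjusted p = 0.000956) was below the fold threshold. Gjb2 (connexin 26), which forms mixed channels with connexin 30, had 553.6 ± 7.30 CPM in control and 641.9 ± 55.0 CPM after neomycin, which gave a log2 fold change of 0.21 (edgeR adjusted p = 0.0776). Lrrc8a, a subunit of volume-regulated anion channels, was lower by less than the fold threshold, with a log2 fold change of -0.22 (edgeR adjusted p = 0.035). The vesicular nucleotide transporter gene Slc17a9 lay below 2 CPM, and Calhm1, an ATP release channel of taste cells, had 0 counts in every sample.

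Entpd1, on chromosome 19 from 40612366 to 40741602 on the plus strand, encodes CD39, an enzyme of vessels and immune cells that takes ATP and ADP to AMP. It was the lowest of the 10 genes, at 3.51, 2.63 and 2.69 CPM in control and at 2.82, 3.64 and 3.80 CPM after neomycin. The groups overlapped, and the log2 fold change was 0.22 with a 95% interval from -0.23 to 0.66 (edgeR adjusted p = 0.457), whose upper bound is 1.58 times control. Of 8 endothelial markers in the same libraries, 6 were called lower, against 6.60% of all genes tested. Among the 6 were Pecam1 and Cdh5, with log2 fold changes of -2.71 and -2.05. Emcn held most of the summed level of the endothelial list, which was 279.3 to 313.5 CPM in control and 266.4 to 316.6 CPM after neomycin. Emcn was not called (log2 fold change 0.12). No gene of the list was at 0. The part of the endothelial and macrophage genes in the Entpd1 value was not tested.

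Entpd2, on chromosome 2 from 25395874 to 25401321 on the plus strand, encodes an enzyme that prefers ATP over ADP and occurs on glia and SC-like cells of several tissues. It was at 16.5, 19.5 and 19.0 CPM in control and at 18.2, 20.4 and 18.8 CPM after neomycin. The groups overlapped, with a log2 fold change of 0.06 and a 95% interval from -0.15 to 0.28 (edgeR adjusted p = 0.665). Of 8 listed Schwann cell and glia genes, S100b was called higher and Erbb3 lower (log2 fold changes 0.88 and -0.90). Of 10 SC markers, 2 were called lower, Prox1 and Fgfr3 (-1.46 and -0.66), and 0 higher. Of all genes tested, 6.60% were called lower and 2.24% higher. The part of glia and SCs in the Entpd2 value was not tested. Npdc1 on the same strand overlaps exons of Entpd2 and was at 100.2 ± 0.525 CPM in control and 119.2 ± 6.5 CPM after neomycin (log2 fold change 0.25). Per kb of exon, Entpd2 was 16.5 times Entpd1 in control and 14.8 times Entpd1 after neomycin (geometric means). The log2 ratio was 3.63, 4.28 and 4.21 in control and 4.08, 3.87 and 3.70 after neomycin, a difference of -0.16 with overlapping groups (exact two-sided permutation test, p = 0.6).

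Of the 13 ectonucleotidase and related genes listed, all were tested and 0 were called, against 8.84% of all genes tested. DESeq2 and limma-voom also called 0. An unadjusted p under 0.05 was reached by 4, and by at least 29.0% of all genes tested. The adjusted p threshold alone was passed by 2, which is 15.4% of the list against 29.0% of all genes tested. Enpp2, which encodes autotaxin, was at 205.9 ± 28.4 CPM in control and 290.9 ± 17.7 CPM after neomycin (SD, n = 3), higher by 0.50 on the log2 scale (edgeR adjusted p = 0.00322). Entpd3, a further ecto-ATPase, was at 42.7, 51.0 and 46.5 CPM in control and at 36.7, 39.7 and 40.1 CPM after neomycin. The neomycin values of Entpd3 were all below the control values, with a log2 fold change of -0.27 (edgeR adjusted p = 0.0294). Nt5e, which encodes the AMP-degrading enzyme CD73, was at 16.5 ± 0.391 and 16.3 ± 1.30 CPM (log2 fold change -0.03, edgeR adjusted p = 0.869). Entpd4 ranged from 6.94 to 36.2 CPM within the control group alone.

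Per kb of exon, the levels of the 10 genes in control spanned 341.5-fold. P2rx2 led with 179.9 ± 27.6 CPM per kb (SD, n = 3), a level above 98.5% of the tested genes with a known exon length, followed by Ano1 with 13.2 ± 1.90, Entpd2 with 8.62 ± 0.748 and P2ry1 with 7.59 ± 0.472. P2rx4 at 5.17 ± 0.0981, P2ry2 at 4.87 ± 0.191, Panx1 at 3.85 ± 0.312 and P2rx3 at 3.50 ± 1.37 CPM per kb followed. P2rx7 at 1.17 ± 0.306 and Entpd1 at 0.527 ± 0.0882 CPM per kb came last. The order was the same in the neomycin group. Neighbors in the order whose samples overlapped were Entpd2 and P2ry1 in both groups, Panx1 and P2rx3 in control, and P2ry2 and Panx1 after neomycin.

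**Figure D4:**
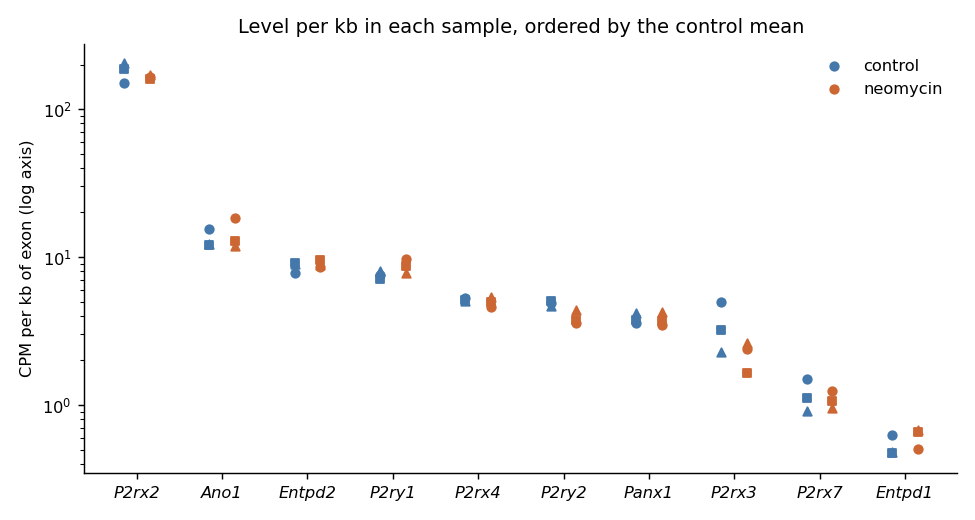
Level of the 10 transcripts per kb of exon in each sample (log axis), in control (blue) and neomycin (orange), ordered by the control mean, with replicate numbers 1, 2 and 3 as circles, squares and triangles. P2rx2 stands at 13.6 times Ano1, the next gene, in control, and the order from P2rx2 to Entpd1 is the same in both groups.

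Around these genes, lists of the same pathway were set out, 69 genes with the 10 included. Of the 63 that were tested, 4 were called lower and 0 higher, against 6.60% and 2.24% of all genes tested. The 4 were Gja1, Adora1, Ano3 and Plcb4, none of them among the 10, and the median log2 fold change over the 63 genes was -0.07. Of the higher genes, 8 had an unadjusted p under 0.05 by edgeR. Over all genes tested, at least 12.9% were higher at that threshold. DESeq2 and limma-voom each called 1 higher, Ano2, against 396 and 377 of all genes. It overlapped between the groups at 0.214 ± 0.161 CPM in control and 0.638 ± 0.224 CPM after neomycin (SD, n = 3) and had an adjusted p of 0.0542 by edgeR. With no fold threshold 12 passed, 10 lower and 2 higher, against 16.1% and 12.9% of all genes tested. Without control replicate 2 the count of calls was 2, and without control replicate 3 it was 7.

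In the Gq cascade that P2Y receptors feed, 12 genes were tested, 3 passed the adjusted p threshold, all lower, and 1 was called, which is 25.0% and 8.33% of the list against 29.0% and 8.84% of all genes tested. Plcb4, a phospholipase C isoform, was at 20.8, 20.4 and 15.1 CPM in control and at 12.8, 11 and 10.8 CPM after neomycin, with no overlap and a log2 fold change of -0.70 (SE 0.13, edgeR adjusted p = 0.00238). With the gene length trend removed its log2 fold change was -0.54, short of the fold threshold. The inositol trisphosphate receptor genes Itpr1 and Itpr3, calcium release channels of the internal store, had log2 fold changes of -0.34 (edgeR adjusted p = 0.0323) and -0.58 (edgeR adjusted p = 0.00834). Gna11, which encodes a Gq family subunit, and Plcb3 had -0.03 and -0.07 and did not pass. Slc12a2, which encodes the chloride-loading cotransporter NKCC1, was at 337.2 ± 17.1 CPM in control and 380.7 ± 13.3 CPM after neomycin (SD, n = 3), and its log2 fold change was 0.17 (edgeR adjusted p = 0.104).

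Among the 10 anoctamin genes, 9 were tested and Ano3 was called, 11.1% of those tested against 8.84% of all genes tested. Ano3 was low, at 4.0, 4.12 and 3.34 CPM in control and at 1.69, 2.69 and 1.64 CPM after neomycin, with a log2 fold change of -0.92 (SE 0.23, edgeR adjusted p = 0.0118) that had an adjusted p of 0.0547 without control replicate 2. Muc15 overlaps its exons on the opposite strand. Ano6, a phospholipid scramblase of the same family, was at 103.4 ± 10.3 and 92.4 ± 3.70 CPM and Ano10 at 69.8 ± 1.81 and 65.2 ± 1.88 CPM, and neither passed. Of 8 adenosine receptor and transporter genes, 7 were tested and Adora1 was called, 14.3% of those tested against 8.84% of all genes. Adora1, which encodes an inhibitory adenosine receptor, was at 5.69, 6.92 and 6.23 CPM in control and at 2.75, 3.86 and 4.10 CPM after neomycin, which gave a log2 fold change of -0.81 (SE 0.18, edgeR adjusted p = 0.00608). Its groups did not overlap, and Mybph overlaps its exons on the opposite strand. The nucleoside transporter gene Slc29a3 passed the adjusted p threshold alone (log2 fold change -0.31, edgeR adjusted p = 0.0485).

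**Figure D5:**
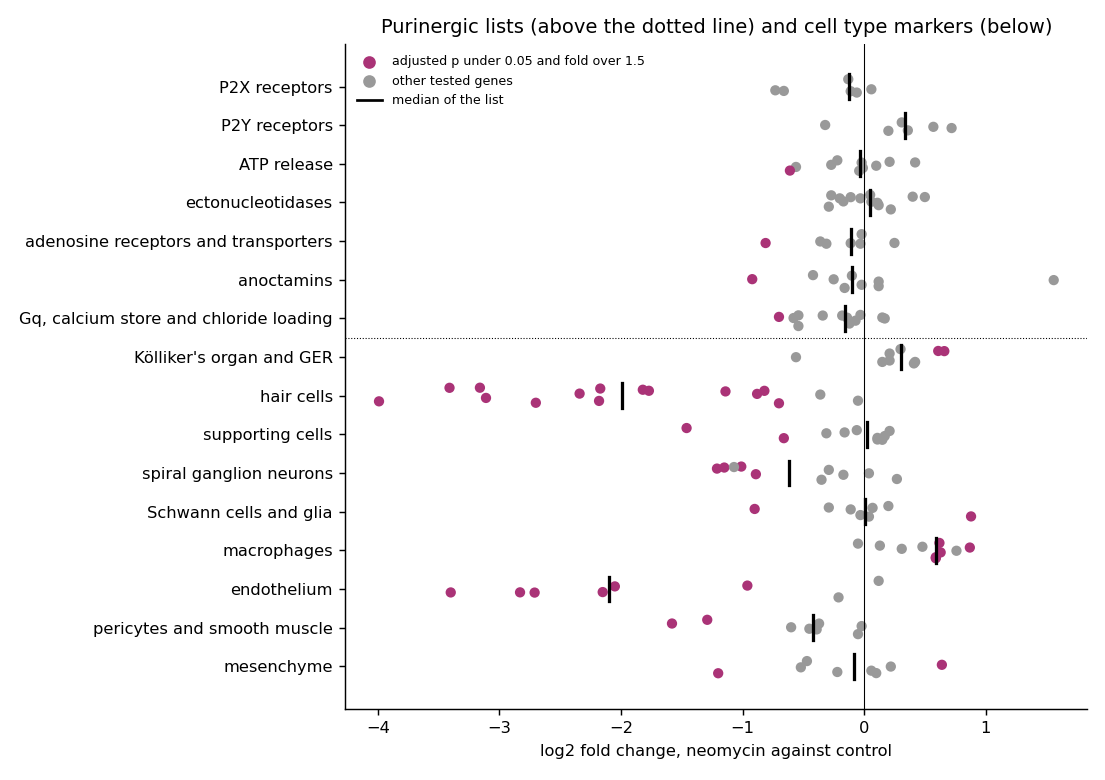
Log2 fold change, neomycin against control, of every tested gene in the purinergic lists (above the dotted line) and in the cell type marker lists (below it), with called genes in purple and the median of each list as a black bar. The medians of the purinergic lists lie between -0.16 and 0.34, while that of the HC markers is -2.0 and that of the endothelial markers -2.10.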

How the data were processed

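The authors called bases with CASAVA 1.8, trimmed reads with Trimmomatic 0.23, aligned them to mm10 with HISAT2 and counted them per gene symbol with HTSeq on the UCSC mm10 annotation. The deposited values are raw counts. The strand setting and the handling of reads matching several places are not given in the sources used here.

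Counts were scaled by TMM, filtered with filterByExpr and tested in edgeR 4.0.16 (R 4.3.3). The SE of a log2 fold change was its size over the root of the F statistic, and 95% intervals used the fit's degrees of freedom, without adjustment for multiple tests. Levels per kb used the union of exons in GENCODE M21 (mm10), which may differ from the annotation counted. The alternatives used DESeq2 1.42.0, limma 3.58.1, other scalings, filters and thresholds, a block for replicate number, leaving out each sample, and a lowess correction (span 0.3) for exon length, which 99.2% of tested genes had. Code was tested on simulated data. The named genes were the 10 members, called list genes, and the 3 transcripts nearest to Ano1. Members and lists were chosen with earlier results of these data known. Other genes were named after their values were seen. Figures were drawn with matplotlib 3.10.9. Samples of a group differed beyond sampling noise (mean chi-square per gene from 13.8 to 46.8), so each was counted separately.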

Additional observations from a re-analysis of the deposited data

How the results depend on the processing

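The count of the 10 genes called changed, 0 in the reported test, was 1 with DESeq2, with no filter on low counts, with the replicate block and with the gene length trend removed, each time P2rx3, and 1 with no fold change threshold, P2ry2. Leaving out single samples gave 0 to 1. For the 63 tested list genes the count of 4 became 12 with no fold threshold and 0 with a fold over 2, and 2 to 7 with samples left out. For all genes the count of 1413 became 4629 and 686 under the same thresholds and 1037 to 1672 with samples left out. Directions turned for Ano1, P2rx4, P2rx7, Panx1, Entpd2 and the P2rx4 share. With the gene length trend removed, P2rx4 had 0.06, Panx1 0.07 and Entpd2 -0.10, and with upper quartile scaling Panx1 had 0.01. With samples left out, Ano1 ran from -0.10 to 0.25, P2rx4 from -0.11 to 0.00013, P2rx7 from -0.26 to 0.12, Panx1 from -0.09 to 0.06 and Entpd2 from -0.0019 to 0.11, and the P2rx4 share of the P2X level differed by -0.07 to 0.36 percentage points. The causes were not tested. Same-numbered control and neomycin samples had correlations of their deviations from the group means of 0.165, 0.0264 and 0.0949. Each sample correlated best with its own number except control replicate 2, which had 0.0325 with neomycin replicate 3. The main test took the numbers as names only, and whether they mark pairs was not settled. The replicate block called 1465 of all genes and 5 of the list genes, P2rx3 the addition. With 3 samples a group, permutation tests of within-library ratios cannot go below p = 0.1.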
